A study of Xenopus tropicalis with 4 samples.

Results

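The genomic places described here are the ends of genes at which E2F1 and OTX1 were both mapped in Xenopus tropicalis blastulae. They number 713 regions, which is 5.39% of the 13216 E2F1 regions and 23.9% of the 2987 E2F1 regions that overlapped an OTX1 region anywhere. Binding was mapped by ChIP-seq, the sequencing of DNA pulled down with an antibody to a chromatin protein, in embryos at stage 8, around the time at which the zygotic genome starts to be read. For E2F1, 2 samples came from embryos given E2F1 mRNA together with an MO (the usual short form of morpholino, an antisense reagent that blocks an endogenous transcript; its target is not spelled out), labelled E2F1 Rescue and precipitated with an HA antibody. For OTX1, 2 samples came from embryos given OTX1 mRNA together with an MO, labelled OTX1 Rescue and precipitated with a Myc-Tag antibody. Binding was thus read from tagged protein made from injected mRNA in embryos that all carried an MO, and no uninjected or input sample was analysed here.

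The regions were chosen by the peak calls themselves. Overlapping peaks of a factor's lists were merged (1 bp sufficed), and merged regions without a peak in each list were dropped, leaving 13216 E2F1 and 17768 OTX1 regions. An E2F1 region was taken when it overlapped an OTX1 region by at least 1 bp and its midpoint was no farther than 1 kb from where a protein-coding gene is annotated to begin or finish. The gene table gives no strand, so these ends cannot be told apart, and exons or UTRs cannot be named. Because the calls made the selection, fold, q-value and width are given as descriptions without a test. The factors were precipitated from separate embryos, so a shared region is an overlap of calls and not a measurement of both proteins on the same DNA molecule. The lists held 16770 and 20385 E2F1 peaks and 27755 and 29098 OTX1 peaks, and nothing in the labels says that replicates were separate batches of embryos. The number of shared gene-end regions was 808 and 756 without E2F1 replicate 1 and 2, but 1075 and 1239 without OTX1 replicate 1 and 2. In each case 1 list of that factor was then enough for a call. Why the number rose more without an OTX1 list was not tested.

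E2F proteins bind DNA together with DP partners, mostly in promoters, and are held in check by retinoblastoma proteins; their best known targets serve DNA replication and the cell cycle. OTX proteins are homeodomain factors best known for patterning the head, and in Xenopus tropicalis maternal Otx1 also acts with Vegt and Foxh1 at enhancers of the endoderm. Both are maternal factors, and the study's title names their joint effect on the minor wave of zygotic transcription as its question.

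Counted by E2F1 regions, sharing was least frequent close to gene ends. Of 6825 E2F1 regions at gene ends, 713 (10.4%) overlapped an OTX1 region, against 2274 of 6391 (35.6%) away from gene ends. Within gene ends the share was 9.29% up to 100 bp from the end (265 of 2854), 9.26% from 100 to 250 bp (210 of 2267), 11.5% from 250 to 500 bp (131 of 1137) and 18.9% from 500 to 1000 bp (107 of 567). It was 28.5% from 1000 to 2000 bp and between 34.6% and 37.5% in every bin beyond. These shares are what the rule selected on, so they carry no test.

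**Figure D1:**
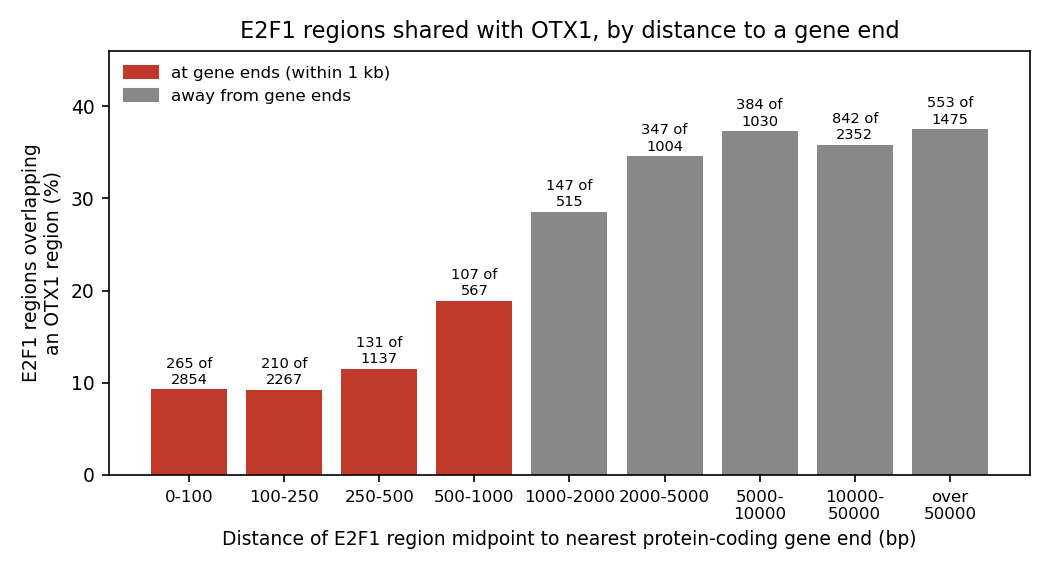
Share of E2F1 regions that overlap an OTX1 region by at least 1 bp (vertical axis, percent), by distance of the E2F1 midpoint to the nearest protein-coding gene end (horizontal axis, bp), with region counts above the bars. The bars within 1 kb run between 9.26% and 18.9%, and those beyond between 28.5% and 37.5%.

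From the OTX1 side the same places made up a large part of a small class. The 713 regions were overlapped by 726 OTX1 regions, 4.09% of all OTX1 regions. Of these, 706 had their own midpoint within 1 kb of a gene end, which is 47.0% of the 1502 OTX1 regions so placed. Of all 17768 OTX1 regions, 2293 others overlapped an E2F1 region. Counted by OTX1 regions, sharing was thus more frequent at gene ends than elsewhere. Just inside the 1 kb limit lay regions at cry4 (970 bp), the tyrosine kinase gene lyn (985 bp) and ckap2 (995 bp), and just outside lay shared regions at the kinase gene rps6ka5 (1003 bp), p4ha1 (1014 bp) and gata2 (1017 bp). The folds of the inner 3 ran between 4.22 and 7.12 for E2F1 and 3.74 and 9.75 for OTX1, and those of the outer 3 between 3.09 and 11.8 for E2F1 and 3.87 and 10.9 for OTX1.

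In E2F1 signal the shared gene-end regions, like other E2F1 regions at gene ends, stood in the upper part of their lists. In OTX1 signal they stood near the middle. The authors' fold at the summit over the local background had a median of 6.59 in E2F1 replicate 1 and 7.04 in replicate 2, against 6.09 and 6.63 in the 5241 E2F1-only regions at gene ends, which overlapped no OTX1 peak of either list. The median OTX1 fold was 5.12 and 5.49, against 5.0 and 5.45 in the 622 OTX1-only regions at gene ends and 5.55 and 6.2 in the 2293 other shared OTX1 regions. As a rank within each list, the median fold percentile was 70.6 and 75.2 for E2F1, with 59.0 and 65.5 over all E2F1 regions. The E2F1-only regions at gene ends had 63.1 and 70.5. The 871 gene-end regions that met an OTX1 peak but no reproducible OTX1 region had 68.9 and 75.3. For OTX1 the median percentile of the shared gene-end regions was 57.8 and 56, with 61.9 and 64.3 over all OTX1 regions. The top 10% of peaks held 21.5% and 24.0% of the regions by E2F1 fold, and 12.2% and 9.12% by OTX1 fold. All regions of either factor stood above the middle of their lists, so 10% is not their share to compare with. That share over all regions is not given here. Regions are not replicates, and 2 libraries per factor give no test between classes of regions of the same libraries.

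The fragments behind these values were few. The median summit pileup solved from the fold and p of each peak was 24 and 28 fragments for E2F1 and 17 and 16 for OTX1, with quartiles of 17 to 37, 19 to 45, 14 to 22 and 13 to 21. With so few fragments, weak regions cannot be ranked firmly. The local background of the E2F1 peaks was also higher at shared gene-end regions than at E2F1-only ones, with medians of 2.81 and 3.2 fragments against 2.41 and 2.76. Its part in the overlap was not tested; when the peaks in the top 10% of local background of each list were left out, which was decided with the data in view, 484 shared gene-end regions were found.

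The strength of one factor said little about that of the other. Across the 713 regions the fold of the E2F1 lists had a Spearman rho of 0.815 (Pearson r of log2 fold 0.830) and that of the OTX1 lists 0.506 (0.598). Between the factors it was 0.176 (0.181) for the lists numbered 1 and 0.0972 (0.101) for those numbered 2. In the 2274 shared regions away from gene ends the rho between the factors was also low, at 0.138 and 0.128. These are descriptions across regions of the same 4 libraries, cut off from below by the calling thresholds, which differed: the highest q was 0.0492 and 0.0470 among E2F1 peaks, and 0.00999 and 0.00977 among OTX1 peaks. In all, 11 regions stood in the top 10% of all 4 lists and 55 in the top 25%, while 50 were below the middle of every list. The same counts over other shared regions are not given here. E2F1 was ahead of OTX1 by over 25 percentile points in 243 regions (34.1%), OTX1 was ahead in 88 (12.3%), and 382 lay between. The midpoint lay a median of 118 bp from the gene end where E2F1 led, 148 bp in the middle group and 278 bp where OTX1 led.

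**Figure D2:**
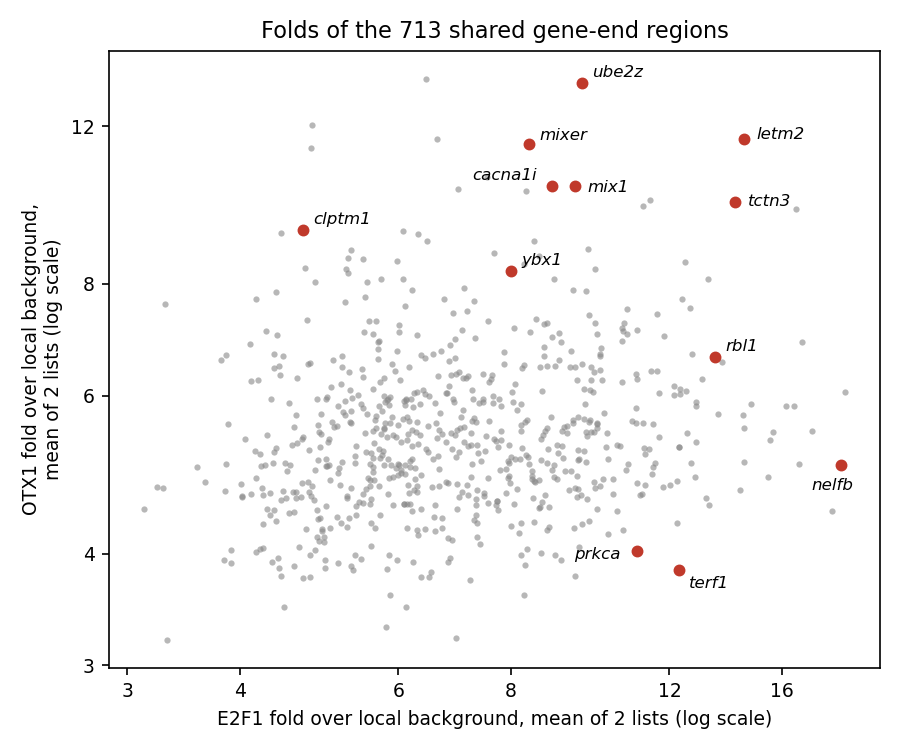
Each point is one of the 713 shared gene-end regions, with the mean E2F1 fold of 2 lists on the horizontal axis and the mean OTX1 fold of 2 lists on the vertical axis, both log scales; regions at some genes named in the text are red. The cloud has no marked slope: terf1 lies right and low, nelfb far right at a middling height, clptm1 lies left and high, and letm2 and tctn3 are high on both axes.

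The highest shared regions lay at genes of varied function. The region with the highest mean fold percentile was at letm2, a relative of the mitochondrial inner membrane gene letm1 (chromosome 3, 131075998 to 131076752, xenTr10). Its folds were 14.9 and 14.2 for E2F1 and 10.4 and 12.8 for OTX1, on summit pileups of 45 and 45 and of 39 and 39 fragments. The E2F1 summit lay 116 bp inside the gene and the OTX1 summit 14 bp outside it. Next came tctn3, which encodes a tectonic protein of the ciliary transition zone (chromosome 9, 531640 to 532330). There the folds were 14.4 and 14.0 for E2F1 and 9.21 and 10.6 for OTX1, and the summits lay 20 bp apart inside the gene. The gene nme3, a nucleoside diphosphate kinase, had 9.81 and 13.0 for E2F1 and 9.43 and 10.4 for OTX1, with summits 391 bp apart. All 4 libraries were high at these places. Without the peaks in the top 10% of local background, letm2 and tctn3 kept their shared region and nme3 lost it. Of the other leading regions named below, those at ccdc9, tvp23b and cacna1i were also lost in that setting.

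Some of the highest regions lay at ends shared by neighbouring genes. The region between rrp8, a methyltransferase of ribosomal RNA, and ilk, the integrin-linked kinase (chromosome 2, 180656000 to 180656972), had folds of 12.3 and 10.2 for E2F1 and 8.50 and 11 for OTX1. The end of ube2z, a ubiquitin-conjugating enzyme, next to an end of the unnamed gene LOC101731254, had 9.39 and 9.78 for E2F1 and 12 and 14.8 for OTX1. That OTX1 replicate 2 value was the highest of the 713 regions in its list. The end shared by gpatch2 and spata17 had 12 and 13.2 for E2F1 and 6.95 and 8.07 for OTX1. Also among the leading 12 were ccdc9 (13.2 and 11.8; 7.52 and 9.42), prkar1a, the regulatory subunit of protein kinase A (12.9 and 11.9; 7.34 and 8.07), hsd17b12, an enzyme of fatty acid elongation (9.24 and 10.3; 8.23 and 9.29), the calcium channel gene cacna1i (8.05 and 9.71; 8.65 and 11.9) and tvp23b (12.6 and 10.6; 6.83 and 7.96), with E2F1 folds first.

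The regions with the largest lead of one factor were picked by the difference in fold percentile, so the gap between the factors there is the choice itself. Among the 6 with the largest lead of E2F1 were prkca, a protein kinase C gene (13.2 and 8.83 for E2F1, 3.86 and 4.2 for OTX1), terf1, which binds telomere repeats (13.2 and 11.4; 3.84 and 3.83), and h2afx.2, a gene of the histone variant H2A.X (7.0 and 9.54; 3.44 and 3.75). The OTX1 summit at prkca rested on 9 fragments in each list. The others were wrap73, trap1, a mitochondrial chaperone, and the protease gene adamts17. Among the 6 with the largest lead of OTX1 were clptm1 (4.14 and 5.27 for E2F1, 9.01 and 9.36 for OTX1), the cilia gene cfap52 (3.88 and 4.89; 8.15 and 7.52) and prdm12 (4.32 and 4.02; 7.14 and 8.25). In the same group were rnf2, the catalytic subunit of Polycomb repressive complex 1 (4.05 and 4.17; 7.12 and 6.58), slc18b1 and amotl2.

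Within these regions the E2F1 summit usually lay closer to the gene end. The median distance of the summit to the nearest end was 157 and 148 bp in the E2F1 libraries and 231 and 245 bp in the OTX1 libraries. The means were 152.5 ± 6.36 and 238 ± 9.90 bp (SD, n = 2 libraries each), a difference of -85.5 bp for E2F1 minus OTX1. The rule placed the E2F1 midpoint near an end, so the difference is a description and no test is given. With the OTX1 midpoint used instead, also decided with the data in view, it was -82.5 bp, but 795 of the 818 genes were the same. In 435 regions (61.0%) the E2F1 summit was the nearer one, in 274 the OTX1 summit, and in 4 they were equally far. With summits required to lie within 100 bp of each other the difference was -13.5 bp.

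**Figure D3:**
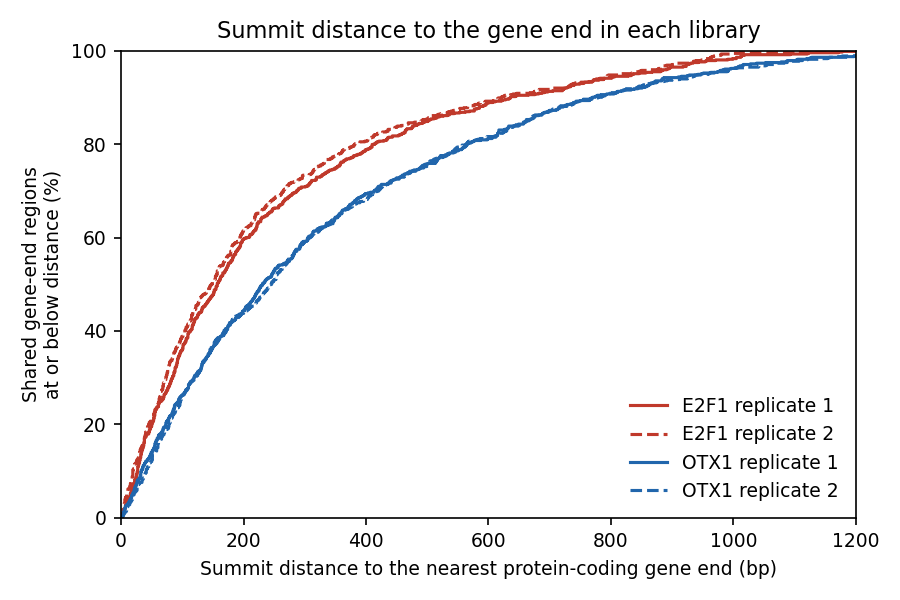
Cumulative share of the 713 shared gene-end regions (vertical axis, percent) whose summit lies within a given distance of the nearest protein-coding gene end (horizontal axis, bp), one line per library. The E2F1 lines, with medians of 157 and 148 bp, run above the OTX1 lines, with medians of 231 and 245 bp.

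The E2F1 summit was inside a gene in 416 regions (58.3%), the same share as over all 13216 E2F1 regions (58.3%), and the OTX1 summit in 393 (55.1%). They were both inside in 305 and both outside in 209, with E2F1 alone inside in 111 and OTX1 alone inside in 88. Among E2F1-only regions at gene ends 67.7% of summits were inside a gene. At 10.4% of named genes with E2F1 at an end the region was shared, near the 10.4% over gene-end regions, so counting genes in place of regions gave the same share.

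The summits of the factors lay farther apart at gene ends than elsewhere. Their median distance was 174 bp between the lists numbered 1 and 169 bp between those numbered 2, against 89 and 77 bp in the 2274 shared regions away from gene ends. Taking for each factor the summit of highest fold percentile of either list, as in all distances between summits given for single genes and by width, the medians were 169 and 75 bp, and 33.8% of the gene-end regions and 61.7% of the others had summits within 100 bp. For a single region such a distance can join lists of different replicate number. The E2F1 regions were also wider at gene ends, with a median of 740 bp against 472 bp. Within E2F1 regions of up to 500 bp the median distance was 91.5 bp at gene ends (n = 110) and 67 bp elsewhere (n = 1312). In regions over 500 and up to 750 bp it was 146 bp (n = 257) and 80.5 bp (n = 766), in those up to 1000 bp 209 bp (n = 191) and 114 bp (n = 150), and in wider ones 227 bp (n = 155) and 202 bp (n = 46). The gene-end value was thus the higher in each width class. No test between these classes was made.

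**Figure D4:**
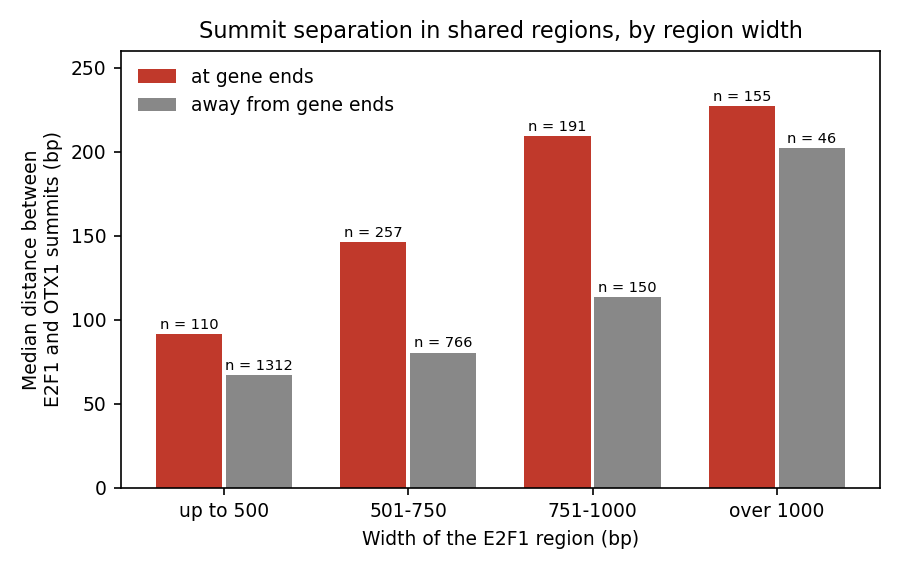
Median distance between the E2F1 and OTX1 summits (vertical axis, bp) in shared regions at gene ends (red) and away from them (grey), by width of the E2F1 region (horizontal axis, bp), with the number of regions above each bar. The red bar is the taller in each of the 4 width classes, by 146 against 80.5 bp in regions over 500 and up to 750 bp wide.

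The closest and the widest regions show this range. At orai2, a subunit of store-operated calcium channels, and at eif3f, a subunit of the initiation factor eIF3, the summits coincided, 319 and 39 bp from the gene end. At gls, the glutaminase gene, they lay 1 bp apart and at cacna1i 2 bp. The widest E2F1 region, 2255 bp at hmgn1, a nucleosome-binding protein, and its neighbour get1, held summits 856 bp apart. Those at ube2d3 (1983 bp wide), zbtb10 (1945 bp) and the deubiquitinase gene usp25 (1889 bp) held summits 730, 977 and 1340 bp apart, the last being the largest distance among all 713 regions. In 317 regions (44.5%) the OTX1 region lay wholly inside the E2F1 region.

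Ends of neighbouring genes carried 107 of the regions. That is 15.0% with an end of a second protein-coding gene within 1 kb. The share was 12.8% among the E2F1-only regions at gene ends. It was 17.1% among the 871 gene-end regions that met an OTX1 peak but no reproducible OTX1 region. No test between these classes was made. In 94 of the 107 regions the genes did not overlap, with a median of 136 bp between them. The E2F1 summit lay between the genes in 27 of the 94, the OTX1 summit in 27 and both in 13. The summits of the factors were a median of 204 bp apart over the 107 regions and 162 bp over the remaining 606. Those 606 had ends of only 1 gene in reach, which can be both ends of a short gene.

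The shared regions named 818 genes, 3.76% of 21749 protein-coding genes and 10.7% of the 7624 with an E2F1 region at an end. Of these, 736 have a gene name, which is 4.72% of the 15593 named genes and the share against which the lists of named genes below are set. The lists were drawn up with earlier results of these data known, so a high share is no independent evidence and no set was tested. A region within 1 kb of ends of 2 genes was counted for both, so a list count does not assign it to the listed gene alone. This holds below for mcm10 (with thap9), mcm8 (trmt6), hsf1 (bop1), lin37 (proser3), hdac1 (tor2a) and ino80b (wbp1). The same is true of sf3b3 (cog4), smg6 (srr), taf10 (pgap2), taf5l (urb2) and rpl9 (lias).

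**Figure D5:**
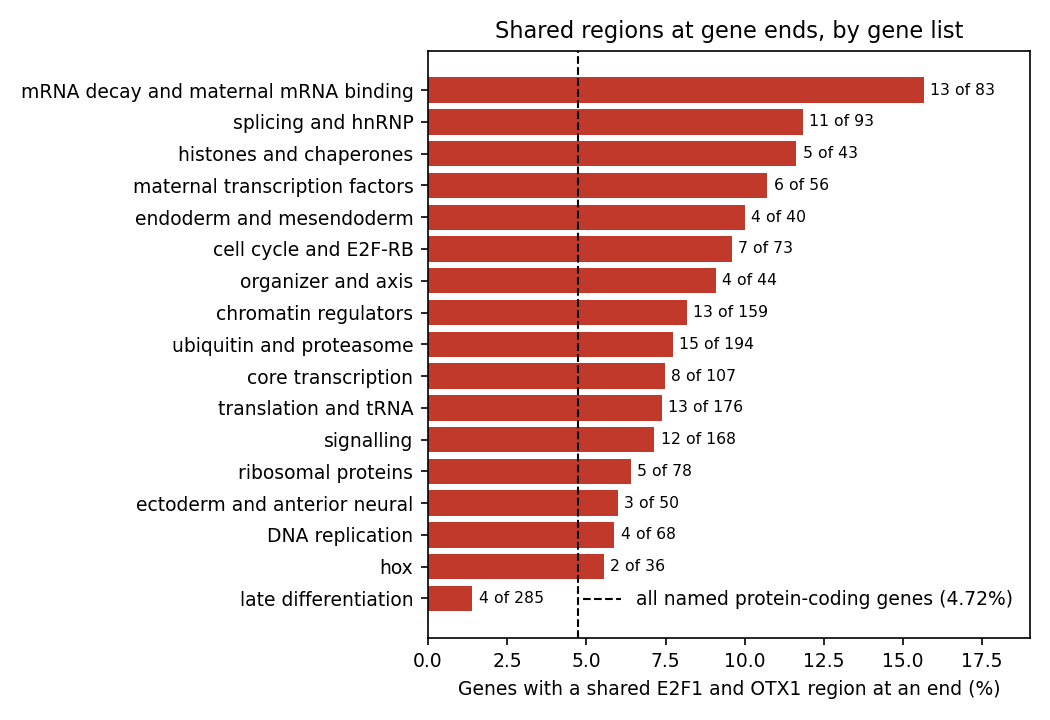
Share of the genes of each list that have a shared E2F1 and OTX1 region at an end (horizontal axis, percent), with counts beside the bars; the dashed line marks the 4.72% of all named protein-coding genes. The list of mRNA decay and maternal mRNA binding is at the top with 13 of 83 and late differentiation at the bottom with 4 of 285.

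Genes of mRNA decay and maternal mRNA binding had the highest share among the 17 lists, 13 of 83 (15.7%). Among their genes with E2F1 at an end it was 22.8%, beside 10.4% for all named genes of that kind. By that second share the organizer (33.3%), endoderm (33.3%) and hox (25%) lists stood higher. In a blastula, genes of mRNA decay and maternal mRNA binding decide how long egg transcripts last and whether they are translated. The Y-box protein gene ybx1, whose product coats mRNA, had E2F1 folds of 8.07 and 7.93 and OTX1 folds of 7.89 and 8.64, with summits 708 bp apart. Its germline relative ybx2 had 9.62 and 10.9 for E2F1 and 4.25 and 5.95 for OTX1, with summits 20 bp apart in the lists numbered 2. In the lists numbered 1 the ybx2 summits lay 38 bp (E2F1) and 149 bp (OTX1) from the gene end. The Argonaute gene ago2, the slicer of RNA interference, had 9.68 and 9.70 for E2F1 and 5.61 and 10.1 for OTX1, so the OTX1 lists differed there by more than those of E2F1. Deadenylation was represented by cnot6l, a catalytic subunit of CCR4-NOT (6.24 and 5.52; 5.87 and 6.08), and pan2 (7.96 and 8.46; 5.81 and 5.14). Nonsense-mediated decay was represented by its helicase upf1 (8.98 and 7.73; 4.88 and 5.37), the kinase smg1 (7.2 and 7.61; 5.05 and 5.11) and the nuclease smg6 (9.45 and 9.30; 4.63 and 6.64). The count was 7 at a −log10 q of at least 5, where 422 genes in all were left of 818, and 3 with a reciprocal overlap of 50%, where 394 were left. Without the peaks in the top 10% of local background, ybx1, ybx2, ago2 and upf1 lost their shared region. In that setting cnot6l, pan2, smg1 and smg6 kept theirs. With a reciprocal overlap of 50%, none of the genes of this list described here by name kept a shared region.

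Splicing factors and hnRNP proteins followed with 11 of 93 genes (11.8%), and 13.6% of those with E2F1 at an end. Among them were hnrnph1 (7.82 and 7.33 for E2F1, 5.26 and 7.19 for OTX1), sf3b3, a subunit of the U2 particle (9.85 and 11.7; 4.8 and 5.28), snrpf, a core snRNP protein (11.5 and 11.4; 5.47 and 4.34) and the RNA-binding gene fus (8.89 and 8.95; 5.20 and 4.53). The splicing factors srsf1 and srsf5 had OTX1 folds of 4.79 and 6.22 and of 4.26 and 3.52. Without the peaks in the top 10% of local background, 1 gene of this list was left. Ubiquitin and proteasome genes had 15 of 194 (7.73%, and 11.5% of those with E2F1), among them ube2z above. Those of translation had 13 of 176 (7.39%, and 10% of those with E2F1). Both shares of the genes with E2F1 were near the 10.4% of all named genes with E2F1. Among the translation genes was eif4g3, a scaffold of the cap-binding complex (9.38 and 9.96 for E2F1, 5.79 and 5.95 for OTX1). Of the 78 ribosomal protein genes, 63 had E2F1 at an end and 5 a shared region (7.94% of those 63), rpl9 and rpl10 among them. The OTX1 folds were 6.93 and 6.54 at rpl9 and 5.04 and 6.71 at rpl10, and the rpl9 region was lost without E2F1 replicate 1 and without OTX1 replicate 2. That region also lay at an end of the neighbouring gene lias, and its OTX1 summit was outside rpl9 and inside another gene. The E2F1 and OTX1 regions overlapped there by 20 bp, with summits 596 bp apart.

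DNA replication genes are among the best known E2F targets. Of 68 such genes, 61 had E2F1 at an end and 4 (5.88%, beside 4.72% of all named genes) had a shared region, which is 6.56% of those 61, beside 10.4% of all named genes with E2F1. None of the 4 was left with a reciprocal overlap of 50%. They were mcm10, which helps to activate the replicative helicase (8.09 and 8.32 for E2F1, 4.84 and 6.30 for OTX1), mcm8 (10.2 and 13.9; 4.63 and 4.92) and mcm9 (5.25 and 5.35; 4.73 and 6.49), which act in recombination repair, and tk1, the thymidine kinase (10.4 and 10.4; 4.24 and 5.08). None of the 4 is a subunit of the MCM2-7 helicase. At mcm10 the summits of highest fold percentile, from E2F1 replicate 1 and OTX1 replicate 2, lay 11 bp apart. By list, the summits lay 238 and 64 bp from the nearest gene end for E2F1, and 397 and 249 bp for OTX1. The distance of 11 bp was therefore not seen within either pair of lists of equal number.

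Of the cell cycle and E2F-RB genes 7 of 73 (9.59%) were shared, 12.3% of those with E2F1. The retinoblastoma relative rbl1 had E2F1 folds of 13.5 and 13.5 and OTX1 folds of 5.59 and 7.67, with summits 379 bp apart. At cdca7, a chromatin factor controlled by E2F and MYC, the folds were 8.57 and 7.58 for E2F1 and 7.90 and 6.39 for OTX1. The summits of the lists numbered 1 lay 20 bp apart there. In the lists numbered 2 they lay 69 bp (E2F1) and 240 bp (OTX1) from the gene end. The E2F family member e2f3 (12 and 12.5; 3.79 and 4.86), the phosphatase cdc25a, which drives the rapid early divisions (13.3 and 12.1; 4.23 and 5.86), and lin37, a subunit of the DREAM complex (7.51 and 9.93; 5.02 and 5.95), were also shared. The mitotic genes plk1 (5.1 and 6.08; 3.65 and 5.01) and prc1 (5.09 and 4.23; 3.57 and 4.56) had folds of at most 6.08 for either factor. Of these 7 genes, e2f3, cdc25a, plk1 and prc1 lost their shared region at a −log10 q of at least 5. Without the peaks in the top 10% of local background, rbl1, cdca7, e2f3, cdc25a and prc1 lost theirs, and lin37 and plk1 kept theirs.

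Genes of transcription and chromatin were shared about as often as other genes with E2F1. Core transcription had 8 of 107 (7.48%, and 9.20% of those with E2F1) and chromatin regulators 13 of 159 (8.18%, and 10.7%). Of the core transcription genes, cdk9 and supt5h were the 2 left where −log10 q had to reach 5. Both lost their shared region without the peaks in the top 10% of local background. Elongation genes were among the shared genes of core transcription. In this set cdk9, the kinase of P-TEFb, had 10.6 and 12.7 for E2F1 and 6.2 and 6.60 for OTX1, and its partner cyclin ccnt2 had 9.08 and 9.87 for E2F1 and 5.32 and 4.44 for OTX1. The pausing factors supt5h (13.8 and 13.4; 4.87 and 6.59) and nelfb (17.7 and 19.5; 5.79 and 4.25) had high E2F1 folds, and the nelfb value in replicate 2 was the highest of the 713 regions in that list. Of the TFIID and related genes, taf10, taf5l, taf11 and taf8 were shared. Their E2F1 folds lay between 3.77 and 10.4 and their OTX1 folds between 3.48 and 5.95. The OTX1 summit at taf10 rested on 8 and 13 fragments. Among chromatin regulators were ino80b, a remodeller subunit (10.1 and 11.2; 6.95 and 7.22), the deacetylase hdac1 (8.46 and 8.09; 8.22 and 4.77), the remodeller ATPases smarcad1 and smarca5, and arid1a of the BAF complex (6.35 and 7.25; 5.63 and 6.47), whose summits lay 25 bp apart.

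Histone deposition genes gave 5 of 43 (11.6%, and 17.2% of those with E2F1). The subunit of chromatin assembly factor 1 chaf1a (11.4 and 11.1 for E2F1, 5.67 and 4.66 for OTX1) and the histone chaperone asf1b (11.7 and 11.3; 4.33 and 5.67) were among them, with set, h3c13 and h2afx.2. None of these 5 was left at a −log10 q of at least 5. Histone genes belong to families of near-identical copies, so the placement of reads at h3c13 and h2afx.2 is uncertain. Of 56 maternal transcription factors, 6 (10.7%, and 16.2% of those with E2F1) were shared. They were the Y-box genes above, the heat shock factor hsf1 (12.3 and 13.4; 5.02 and 6.80), atf7 (7.19 and 8.54; 7.18 and 6.24), ets2 (8.50 and 8.42; 4.95 and 4.28) and the demethylase gene kdm5b (3.48 and 4.55; 4.47 and 5.1).

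Among genes of the germ layers a few had strong regions of both factors. The mesendoderm homeobox gene mix1 was one of 2 genes, with ahdc1, that had a separate shared region at each end. At one end (chromosome 5, 8060359 to 8060858) the folds were 9.51 and 9.35 for E2F1 and 10.1 and 10.5 for OTX1, with summits 34 bp apart, 27 and 61 bp outside the gene. At the other end (8056894 to 8057201) they were 5.03 and 7.17 for E2F1 and 5.52 and 4.53 for OTX1. The related gene mixer had 6.97 and 9.81 for E2F1 and 8.65 and 14.3 for OTX1, with summits 55 bp apart. The ligand gene fgf20 (10.2 and 9.94; 5.91 and 7.44) and the Nodal inhibitor lefty (9.88 and 9.70; 5.45 and 5.83) completed the 4 of 40 endoderm and mesendoderm genes, which are 33.3% of the 12 with E2F1 at an end.

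Organizer and axis genes had 4 of 44 shared, again 33.3% of their 12 genes with E2F1. They were the ventral homeobox gene ventx2.2 (6.79 and 7.04 for E2F1, 5.94 and 5.87 for OTX1), the head inducer cer1 (6.04 and 5.74; 4.39 and 5.66), the TGF-beta inhibitor smad7 (4.43 and 4.23; 4.75 and 7.16) and msx1 (4.87 and 4.83; 5.1 and 4.81). Their midpoints lay 276 to 753 bp from the gene end, and 1 of the 4 was left with a limit of 500 bp. Without the peaks in the top 10% of local background none was left. Of the endoderm and mesendoderm genes, fgf20 and lefty also lost theirs in that setting and with summits within 100 bp. The genes mix1 and mixer kept a shared region under each of the 14 alternatives that redefine the regions. For mix1 a region at either end was enough. Its region starting at 8056894 had summits 155 bp apart and did not meet the 100 bp setting. Of signalling genes 12 of 168 (7.14%, and 13.5% of those with E2F1) were shared. Among them were the receptor notch1 (11.4 and 12; 5.02 and 5.77, summits 43 bp apart) and the hes family repressor gene hes7.2 (9.43 and 9.99; 4.77 and 6.06). At notch1 that distance joined E2F1 replicate 1 and OTX1 replicate 2. Within the lists numbered 1 its summits lay 195 bp (E2F1) and 17 bp (OTX1) from the gene end. Wnt pathway members wnt5b (6.80 and 4.45; 5.22 and 5.01) and fzd8 (5.08 and 4.98; 4.52 and 6.22) had E2F1 folds of at most 6.80 and OTX1 folds of at most 6.22. In the ectoderm list msx1, irx3 and pax6 (3 of 50, and 14.3% of those with E2F1) had E2F1 folds between 3.26 and 4.87. Of 36 hox genes hoxd9 and hoxc10 were shared, 25% of the 8 with E2F1 at an end.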

How the data were processed

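Peak lists of 4 ChIP-seq samples were used, 1 list per sample. Per the submitters' processing notes, the tools were MACS2 2.2.7.1, Bowtie2 2.4.5, deepTools and fastp, with no role given; whether peak calling had a control library is not stated in the labels. The build name xenTr10 stands in the peak names of the OTX1 lists. The deposited values are, per peak, a score (10 times the −log10 q, whole part), the authors' fold or ratio over local background, the −log10 p-value and −log10 q-value, and the summit offset. Folds depend on each library's own background and served within lists.

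Regions were joined, overlapped and placed against RefSeq gene ends (UCB_Xtro_10.0) in Python 3.11.15 with pandas 2.3.3 and SciPy 1.17.1. Coordinates are 1-based. For each list a region carries its peak of highest fold; with several OTX1 regions (13 cases) the one of highest fold percentile was taken. Summit pileups were solved from fold and p (Poisson tail, misfit at most 4.56e-05). Code was tested on simulated data. Read totals are not in the lists, so library depth is unknown.

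Members, gene lists and tests were chosen with earlier results of these data known. Genes were named by rule: the 12 regions of highest mean fold percentile, the 6 with the largest lead of each factor, up to 8 genes per list, genes with shared regions at both ends, regions at the 1 kb limit, and the widest and closest. The planned exact permutation test of summit distance to the gene end is not given, since the rule used the E2F1 position. The planned search for sequence letters was not run, since no genome sequence was used. Alternatives changed the overlap, threshold, list length, window, reference point and libraries.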

Additional observations from a re-analysis of the deposited data

How the results depend on the processing

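The difference in summit distance to the gene end kept its sign under all 14 alternatives that redefine the regions, from -107.5 to -13.5 bp. All of them except the OTX1 midpoint still chose regions by an E2F1 position near a gene end, and the alternatives have many regions in common. The kept sign is therefore no independent evidence. With a replicate block (equal replicate numbers paired) the difference was -85.5 bp. Nothing in the labels says that the numbers pair samples across factors. The number of regions, the number of genes and the median distance between summits were 343, 394 and 118 bp with a reciprocal overlap of 50%, 242, 273 and 50 bp with summits within 100 bp, 366, 422 and 151.5 bp where −log10 q reached 5, 368, 419 and 149.5 bp with lists of equal length, and 1584, 1830 and 175 bp with any OTX1 peak. Leaving out a replicate gave 756 to 1239 regions, 858 to 1422 genes and 154 to 170 bp. The distance between summits was 150 bp within 2 kb, 165 bp with the OTX1 midpoint and 164.5 bp without high local background (both chosen after seeing the data). The cause of these shifts was not tested beyond the smaller or larger lists each setting makes. Of the 818 genes, 53 kept a shared region in every alternative, mix1, mixer, tctn3, rrp8, ilk and hsd17b12 among them, and 8 of 147 named ones did. Pileups of about 16 fragments limit what OTX1 regions can show.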

Other observations

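Shared gene-end regions were found on all 10 chromosomes, from 8.28% of the E2F1 gene-end regions of chromosome 4 (62 of 749) to 13.8% of those of chromosome 9 (65 of 471). They were spread out: 19 of the 713 (2.66%) lay within 10 kb of another. A further OTX1 region lay within 10 kb of 176 (24.7%), against 23.6% of the E2F1-only regions at gene ends, and a further E2F1 region within 10 kb of 155 (21.7%), against 15.2%. Wide E2F1 regions at gene ends were shared more often, with 14.3% of those wider than 856 bp and 8.73% of those up to 545 bp; by E2F1 fold percentile it was 13.1% above 84.9 and 8.85% below 43.9. These are descriptions, with no test.

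The late differentiation list had 4 shared genes of 285 (1.40%), beside 4.72% of all named genes. Among its genes with E2F1 at an end the share was 9.30%, beside 10.4% of all named genes of that kind. Of these, 3 encode potassium channel subunits. They were kcnk15 (5.86 and 6.73 for E2F1, 4.58 and 6.62 for OTX1), kcng2 (5.89 and 6.39; 5.49 and 5.21) and kcna2 (7.85 and 6.09; 4.54 and 5.02). The other was myl12b (4.65 and 4.59; 5.24 and 4.12), which encodes a myosin light chain. The shared regions of kcnk15 and kcna2 were kept in all 14 alternatives.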
